A study of Mus musculus with 44 samples.

Results

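Collagens, laminins and the other core proteins of the basement membrane were followed as 62 genes in RNA sequencing of mouse ovarian follicles exposed to perfluorononanoic acid (PFNA), a fluorinated fatty acid of the per- and polyfluoroalkyl group. The members are every gene with a collagen chain symbol or a laminin alpha, beta or gamma chain symbol, together with Nid1, Nid2, Hspg2, Fn1, Sparc, Agrn and Lox. All 62 were rows of both deposited tables, which hold 22674 genes for the maturation window and 18274 for the ovulation window. By structure they comprise 11 fibrillar collagens, 23 basement membrane genes, 12 beaded filament and network collagens, 9 collagens that decorate fibrils (FACIT and related collagens), 4 transmembrane collagens, and 3 further matrix genes, which are the glycoproteins Fn1 and Sparc and the crosslinking enzyme Lox.

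A basement membrane is a thin sheet in which a laminin network and a collagen IV network, joined by nidogens and perlecan, underlie epithelial cells. In the ovarian follicle such a sheet, the follicular basal lamina, separates the granulosa cells, which have no vessels among them, from the theca outside. Fibrillar collagens lie mostly in the theca and stroma, where lysyl oxidase crosslinks them, and ovulation requires local breakdown of both kinds of matrix at the follicle wall.

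All follicles were wild type and from CD-1 mice, an outbred strain. In the maturation window, when follicles grow under gonadotropin, 11 control libraries were treated with the solvent DMSO and 10 with PFNA. In the ovulation window 12 control libraries were treated with hCG (human chorionic gonadotropin, which triggers ovulation) and 11 with hCG and PFNA, so that controls and exposed follicles both carried hCG. The labels give no dose, exposure time, animal age or batch, and do not say that libraries came from separate animals. The p-values thus set differences against the spread between libraries within each window, which may differ from the spread between animals. In both windows the question was how PFNA changed the follicle's transcripts.

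The maturation values are TPM (each transcript's share of its library after scaling for transcript length, summing to 1000000), with unknown depth, and the ovulation values are estimated counts, with about 10600900 to 19511500 per library, shown as CPM (counts scaled to a library total of 1000000). TPM can be compared between genes, CPM cannot, and levels are not compared across the tables. Each level below is a group's median with its lowest and highest library in parentheses, controls before PFNA. A member is called when its Benjamini-Hochberg adjusted p is under 0.05 over all genes tested (limma on log2(TPM + 1) in maturation, edgeR's quasi-likelihood test in ovulation). Folds in maturation are therefore folds of TPM + 1. For genes of low level they are smaller than the ratio of the TPM printed beside them. Libraries were not uniform. PFNA libraries 1 and 2 of the maturation window lay among the controls on the leading component of expression, at -18.1 and -10.6 against -37.7 to -7.60 for controls and 33.4 to 48.8 for the other PFNA libraries. They lay inside the control range for 10 of the 12 called members each. PFNA library 10 was the highest PFNA library for 27 of 35 tested members and control library 8 the highest control for 23. In the ovulation window, control library 9 was the lowest control for 27 of 55 tested members and PFNA library 5 the highest PFNA library for 22.

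Granulosa markers were high in all libraries, with 10 genes summing to 38332 to 60917 TPM in maturation controls and 17264 to 46386 TPM with PFNA, and 17036 to 23544 and 16423 to 25667 CPM in ovulation. Of these 10, none was called higher and 6 lower in maturation (median log2 fold change -0.65), and 7 higher and 2 lower in ovulation (median 1.11). Of all genes tested, 13.3% were called higher and 16.1% lower in maturation, and 38% and 35.2% in ovulation. As 73.2% of all genes were called in ovulation, calls there do not by themselves set a marker list apart. Markers of stroma and fibroblasts, the cells that make most fibrillar collagen, were also present. Their 10 genes summed to 69.2 to 312 TPM in maturation controls and 133 to 618 TPM with PFNA, with 1 of 10 called higher and none lower, and to 68.6 to 524 CPM in ovulation controls and 351 to 1280.5 CPM with PFNA, with 5 called higher and 1 lower. Endothelial markers, of cells that make collagen IV, summed to 4.64 to 85.1 and 13.2 to 82.2 TPM in maturation (none of 5 tested called) and to 30.1 to 153 and 41.6 to 429.7 CPM in ovulation (5 of 7 called higher). Oocyte markers fell in maturation, with 11 of 11 tested called lower, and 6 of 11 were called higher in ovulation. They held 0.0126% to 0.0197% of TPM in controls, 0.0134%, 0.0116% and 0.0333% in PFNA libraries 1, 2 and 10, and at most 0.000766% in the others, in the maturation window. Of the theca markers 2 of 8 tested were higher and 1 lower in maturation, and 5 of 9 higher and 3 lower in ovulation. Of the immune markers 1 of 2 tested and 2 of 6 were higher, and of the surface epithelium markers 0 of 4 and 2 of 3, with none lower. The immune rises in ovulation included Cd3e, at 0.171 CPM (0 to 0.507) and 217 CPM (153 to 656). Its log2 fold change of 10.5 (adjusted p = 4.6e-17) was the highest of all genes tested in that window. Ptprc, Adgre1, Csf1r and Lyz2 were not called there, and the source of the Cd3e reads was not tested. The mean log2 level of the stromal markers was highest of its group in maturation PFNA library 10 (5.18) and control library 8 (4.64). In ovulation it was highest of its group in PFNA library 5 (5.60) and lowest of its group in control library 9 (2.34). The part of these lists in the results below was not tested, apart from the stromal and oocyte covariates. No marker list had a gene at 0 in every library. In bulk follicles, fewer cells of a type and less RNA per cell cannot be told apart.

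In the maturation window PFNA follicles carried more mRNA for collagen IV, the laminin beta 1 chain, fibronectin and the minor fibrillar collagen chain Col11a1, and less for lysyl oxidase. Of the 62 members 35 had a mean of at least 1 TPM and were tested. Of these, 11 rose (31.4%), where 13.3% of all 13712 genes tested were called higher, and 1 fell (2.86%), where 16.1% of all genes were called lower. In either direction 34.3% of the members were called, against 29.4% of all genes. Members called higher at least 2-fold numbered 3, against 0.963% of all genes, and none was called lower at least 2-fold, against 3.81% of all genes. The median log2 fold change of the 35 was 0.51, against 0.02 for all genes, and 32 were positive. The basement membrane genes had 5 higher and none lower of 18 tested (median 0.46), and the fibrillar collagens had 3 higher and none lower of 8 tested (median 0.61).

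These counts depend on how TPM is scaled. A set of 25 very abundant predicted genes held 25.7% of all TPM in controls and 29.5% with PFNA, and with each library rescaled without them, an alternative chosen after seeing the data, 15 members rose and 1 fell. Over all genes the calls then split into 2986 higher and 1792 lower, against 1824 and 2206 as deposited. With the level of stromal markers as a covariate, also added after seeing the data, 10 members were called higher and 2 lower. Without PFNA library 10, 8 rose and 1 fell, and without control libraries 8 and 12, left out after seeing the data, 22 rose and 1 fell. Over all genes 1092 were called higher and 1936 lower with the stromal covariate. Without PFNA library 10 these were 1456 and 2224, and without control libraries 8 and 12 they were 1865 and 2030. The other 27 members were not tested, because their mean was at most 1.22 TPM in either group.

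**Figure D1:**
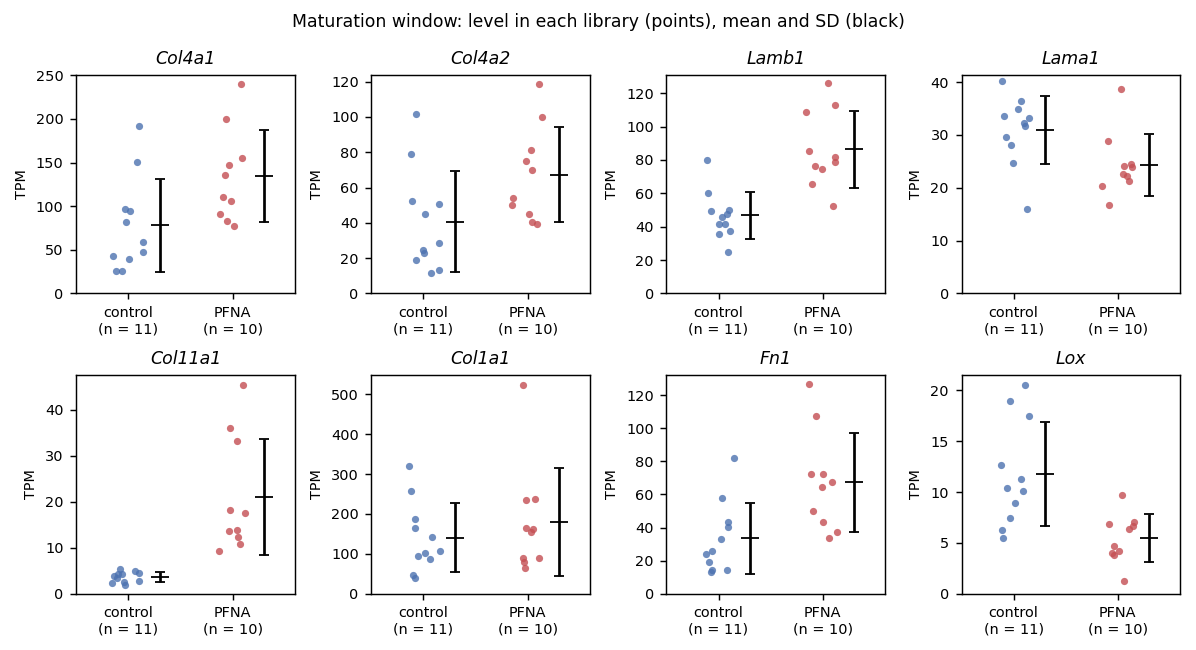
TPM (vertical axis, from 0) of 8 members in every maturation library, controls (n = 11) and PFNA (n = 10), as points, with the group mean and SD in black. All PFNA points of Col11a1 lie above its controls, whereas the groups overlap for the other 7 members, and a single PFNA library stands high for Col1a1.

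Collagen IV, the network-forming collagen of every basement membrane, is built mainly from the Col4a1 and Col4a2 chains, whose genes stand head to head on chromosome 8 (chr8:11198423-11312826, minus strand, and chr8:11312805-11449287, plus strand, GRCm38). Col4a1 measured 59.1 TPM (25.3 to 192) in controls and 123 TPM (77.8 to 240.1) with PFNA. It rose 1.96-fold (log2 fold change 0.97, SE 0.32, adjusted p = 0.027), but the groups overlapped, with 2 of 10 PFNA libraries above every control. Col4a2 went from 28.7 TPM (11.5 to 101) to 61.9 TPM (39.2 to 119) and rose 1.89-fold (log2 fold change 0.92, SE 0.33, adjusted p = 0.043), also with overlap. Both calls were lost without PFNA library 10, at adjusted p = 0.053 and 0.08, and that of Col4a2 also without control library 6 (adjusted p = 0.075). With the oocyte marker share as a covariate the adjusted p was 0.18 for Col4a1 and 0.22 for Col4a2, at log2 fold changes of 1.06 and 1.004.

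Col4a5 and Col4a6 encode the chains of a minor collagen IV network and form another head-to-head pair, on the X chromosome, with RefSeq start sites 1342 bases apart at 141475419 (Col4a5, plus strand) and 141474076 (Col4a6, minus strand; GRCm38.p6). Both rose in both windows, so the stretch upstream of each start is shown, from RefSeq and limited to bases outside annotated exons. For Col4a5 it covers chrX:141475169-141475384 (plus strand) and for Col4a6 chrX:141474077-141474326 (minus strand), each read 5′ to 3′ along its gene, with matches to the motifs named next in capitals.
Col4a5: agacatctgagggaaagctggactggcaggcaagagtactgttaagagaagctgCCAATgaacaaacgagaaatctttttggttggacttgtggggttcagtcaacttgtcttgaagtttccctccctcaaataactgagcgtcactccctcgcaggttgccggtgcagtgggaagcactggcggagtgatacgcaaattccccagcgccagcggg
Col4a6: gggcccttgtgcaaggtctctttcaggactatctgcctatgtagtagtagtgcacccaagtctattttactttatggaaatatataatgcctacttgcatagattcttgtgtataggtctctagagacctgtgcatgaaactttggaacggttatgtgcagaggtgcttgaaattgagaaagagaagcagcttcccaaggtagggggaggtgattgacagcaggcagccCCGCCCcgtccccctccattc

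Motifs were searched on both strands of the 250 bases before the start, in 27025 RefSeq promoters and in the 44 members with an entry. The letters TGTGGT were held by 14.2% of all promoters and 2 members, and the letters TGANTCA by 6.87% of promoters and 1 member. The letters CCAAT were held by 34.5% of promoters and 14 members, and the letters GGGCGG by 32.9% of promoters and 26 members. No printed stretch had overlapping matches. The Col4a5 stretch held 1 CCAAT, which 31.0% of windows of its length held, and the Col4a6 stretch held 1 GGGCGG, on the opposite strand (as CCGCCC). A match is a description of these letters and not evidence of a bound factor.

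Col4a5 was 4.85 TPM (3.04 to 5.90) in controls and 8.96 TPM (4.76 to 13.9) with PFNA. Its rise was 1.63-fold (log2 fold change 0.71, SE 0.14, adjusted p = 0.00054), and 8 of 10 PFNA libraries exceeded every control, the exceptions overlapping the controls. Col4a6 was lower throughout, at 1.04 TPM (0.540 to 1.27) and 1.82 TPM (0.770 to 3.12), and rose 1.40-fold on the TPM + 1 scale (log2 fold change 0.48, SE 0.13, adjusted p = 0.0084) with 8 of 10 PFNA libraries above every control. Col4a3 and Col4a4, the remaining collagen IV chains, stayed under the test's floor in both groups, with at most 0.639 TPM in any library. By TPM, the collagen IV pool was 61.6% Col4a1 and 33.0% Col4a2 in controls, and 62.6% and 31.8% with PFNA (medians).

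Laminins are trimers of an alpha, a beta and a gamma chain. Lamb1, a beta chain, was the laminin gene that rose in this window, from 45.6 TPM (24.9 to 80.02) in controls to 80.4 TPM (52.2 to 126) with PFNA. The change was 1.84-fold (log2 fold change 0.88, SE 0.17, adjusted p = 0.00047), with 5 of 10 PFNA libraries above every control and the others inside the control range. Lamb2, the beta chain that forms most of the follicle's beta chain mRNA, had the highest mean TPM of all 62 members in controls and measured 305 TPM (162 to 419.6) and 305 TPM (201 to 332) (log2 fold change -0.083, SE 0.13, adjusted p = 0.68). The share of Lamb1 in the TPM of the 3 beta chains was accordingly 9.04% to 19.6% in controls (median 13.4%) and 17.5% to 35.0% with PFNA (median 21.6%), with overlap.

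Lama1, the alpha chain with the highest TPM in the control follicles, was not called, at 32.2 TPM (16.04 to 40.2) and 23.2 TPM (16.7 to 38.6) (log2 fold change -0.33, SE 0.14, adjusted p = 0.071). No PFNA library left the control range. It was called lower with median-ratio size factors (-0.36, adjusted p = 0.024) and without PFNA libraries 1 and 2 (-0.39, adjusted p = 0.024). The share of Lama1 in the alpha chain TPM was 56.4% to 72.1% in controls (median 65.6%) and 46.4% to 73.5% with PFNA (median 51.7%). Lama4, the alpha chain of vessel walls and many stromal cells, made up 28.0% and 36.9% of it (medians). Lamc1, the gamma chain of most laminins, was not called at 24.7 TPM (13.3 to 36.0) and 31.3 TPM (18.9 to 49.5) (log2 fold change 0.32, SE 0.16, adjusted p = 0.14). Lama2, Lama4, Lama5 and Lamc3 were not called either, with log2 fold changes of 0.30, 0.20, 0.52 and 0.11. Lama3 and Lamb3, an alpha and a beta chain of stratified epithelia, were not tested and reached at most 0.324 TPM in any library.

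The proteins that join the networks did not pass the test. Hspg2, the gene for the heparan sulphate proteoglycan perlecan, was 43.4 TPM (16.7 to 90.4) in controls and 61.3 TPM (27.9 to 116) with PFNA (log2 fold change 0.43, SE 0.24, adjusted p = 0.18). Agrn, the gene for agrin, measured 30.5 TPM (16.9 to 49.98) and 39.1 TPM (35.5 to 60.7) (log2 fold change 0.32, SE 0.14, adjusted p = 0.086). Nid1, which encodes the laminin-to-collagen-IV linker nidogen 1, measured 15.9 TPM (6.47 to 40.5) and 24.6 TPM (11.6 to 61.2) (log2 fold change 0.68, SE 0.31, adjusted p = 0.11). In these 3 genes the control and PFNA ranges overlapped, and 1 PFNA library exceeded every control. Nid2, the gene for nidogen 2, was not called either (log2 fold change 0.54, SE 0.28, adjusted p = 0.16). Col15a1, which encodes a basement membrane collagen with heparan or chondroitin sulphate chains, was 13.1 TPM (7.20 to 36.6) and 24.1 TPM (11.1 to 42.7) (log2 fold change 0.62, SE 0.27, adjusted p = 0.085), and its relative Col18a1, the source of endostatin, was not called (log2 fold change 0.20, SE 0.33, adjusted p = 0.68).

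Among the fibrillar collagens Col11a1 moved most. The chain it encodes forms the core of thin fibrils and limits their width. It was 3.803 TPM (1.92 to 5.34) in the controls and 15.7 TPM (9.25 to 45.4) with PFNA, a 4.30-fold rise (log2 fold change 2.11, SE 0.24, adjusted p = 5.8e-06). All 10 PFNA libraries lay above every control, including libraries 1 and 2, and it was the only tested member without overlap in this window. The gene lies at chr3:114030540-114220718, plus strand (GRCm38). Because it rose in both windows without overlap or nearly so, the 250 bases before its RefSeq start are shown (chr3:114030290-114030539, plus strand), with 2 matches to GGGCGG and 1 to CCAAT (as ATTGG) in capitals.
Col11a1: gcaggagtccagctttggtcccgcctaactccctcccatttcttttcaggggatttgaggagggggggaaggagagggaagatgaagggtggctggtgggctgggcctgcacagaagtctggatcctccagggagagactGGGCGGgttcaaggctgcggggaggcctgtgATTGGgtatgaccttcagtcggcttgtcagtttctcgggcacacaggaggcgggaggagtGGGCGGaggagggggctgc

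The partner chains of the thin and heterotypic fibrils were called in part. Col5a2, a chain of collagen V, which starts the assembly of collagen I fibrils, rose 1.91-fold, from 4.58 TPM (2.68 to 7.30) to 9.21 TPM (6.01 to 21.7) (log2 fold change 0.93, SE 0.19, adjusted p = 0.0011), with 7 of 10 PFNA libraries above every control. Col27a1, a fibrillar chain best known from cartilage, rose 1.48-fold at a low level, from 1.54 TPM (0.825 to 2.35) to 2.55 TPM (2.17 to 4.24) (log2 fold change 0.57, SE 0.12, adjusted p = 0.0015), with 7 of 10 above every control. Col5a1 and Col5a3 were not called (log2 fold change 0.50, SE 0.27, adjusted p = 0.17, and log2 fold change 0.66, SE 0.28, adjusted p = 0.084).

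The abundant fibrillar collagens did not pass the test. Col1a1, which encodes the alpha 1 chain of collagen I, ranged over 107 TPM (38.6 to 319.9) in controls and 158 TPM (65.3 to 524) with PFNA (log2 fold change 0.33, SE 0.38, adjusted p = 0.55). Col1a2, the alpha 2 chain, was 109.7 TPM (60.0 to 232) and 164 TPM (89.2 to 338) (log2 fold change 0.48, SE 0.24, adjusted p = 0.15). Col3a1, the chain of the collagen III of soft tissue, was 114 TPM (39.5 to 259) and 198 TPM (106 to 501) (log2 fold change 0.84, SE 0.32, adjusted p = 0.052) and was called higher under 6 alternatives, with adjusted p between 0.012 and 0.047. Ranges overlapped widely in all 3 genes, and their highest PFNA value was always library 10. With the stromal marker level as a covariate the log2 fold change of Col1a1 was -0.36 (adjusted p = 0.022), so its sign turned. Col11a1, Col5a2, Col27a1, Fn1, Lamb1 and the collagen IV genes were still called higher with this covariate. Endothelial and oocyte marker levels are given above.

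The beaded filament collagen VI had 1 called member. Col6a4, the alpha 4 chain, rose 2.05-fold at a low level, from 1.27 TPM (0.142 to 4.68) to 3.62 TPM (0.947 to 9.87) (log2 fold change 1.04, SE 0.32, adjusted p = 0.017), and 3 of 10 PFNA libraries exceeded every control. The major chains were not called. Col6a1 was 118 TPM (86.4 to 262) and 148 TPM (83.0 to 374) (log2 fold change 0.16, SE 0.23, adjusted p = 0.63), Col6a2 was 46.0 TPM (21.8 to 142) and 69.2 TPM (35.9 to 181) (log2 fold change 0.47, SE 0.32, adjusted p = 0.29), and Col6a3 was 24.0 TPM (13.3 to 60.0) and 39.7 TPM (24.8 to 87.5) (log2 fold change 0.71, SE 0.27, adjusted p = 0.051). Under some alternatives Col6a3 was called higher, with adjusted p between 0.0059 and 0.047. Of the fibril-associated collagens, Col20a1 was called higher at 0.774 TPM (0.347 to 1.81) and 1.64 TPM (0.615 to 3.26) (log2 fold change 0.51, SE 0.18, adjusted p = 0.041), a call that was lost without PFNA library 10 (adjusted p = 0.078) and without control library 6 (adjusted p = 0.063), and Col16a1 was not called (log2 fold change 0.51, SE 0.23, adjusted p = 0.1). The 4 transmembrane collagens had too little mRNA to be tested.

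Fn1, the gene for fibronectin, an adhesive glycoprotein that integrins bind, was 25.6 TPM (13.0 to 82.1) in controls and 66.0 TPM (33.8 to 127) with PFNA, and rose 2.15-fold (log2 fold change 1.11, SE 0.31, adjusted p = 0.0098). Ranges overlapped, with 2 of 10 PFNA libraries above every control. Lox, the gene for lysyl oxidase, was the only member that fell. It went from 10.4 TPM (5.43 to 20.6) to 5.53 TPM (1.21 to 9.69), 1.98-fold lower (log2 fold change -0.99, SE 0.25, adjusted p = 0.0052), with 5 of 10 PFNA libraries lower than all controls. Sparc, a collagen-binding glycoprotein with the highest mean TPM in controls after Lamb2, was 155 TPM (86.0 to 278) and 184 TPM (96.9 to 372) (log2 fold change 0.20, SE 0.25, adjusted p = 0.58). With the oocyte marker share as a covariate 4 members were called higher (Col11a1, Col5a2, Col27a1 and Lamb1) and none lower. Over all genes this fit called 340 higher and 497 lower. The log2 fold change was then 1.03 for Fn1 (adjusted p = 0.17) and -0.72 for Lox (adjusted p = 0.23). That share was at least 0.0126% in controls and at most 0.000766% in all PFNA libraries but 1, 2 and 10. In this fit the share and PFNA can thus hardly be told apart. Without PFNA libraries 1 and 2, 21 members were called higher and 2 lower. Calls over all genes then also rose, to 2600 higher and 2601 lower, against 1824 and 2206 with these libraries.

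In the ovulation window PFNA follicles had more mRNA for 5 of the 6 collagen IV chains, for laminin chains Lama1, Lama4, Lamb1 and Lamc3, for 3 collagen VI chains and for Col11a1, and less for Lox and for the collagens Col24a1, Col27a1 and Col12a1. Of 55 members tested, 33 rose (60%), where 38% of all 13441 genes tested were called higher, and 5 fell (9.09%), where 35.2% of all genes were called lower. In either direction 69.1% of the members were called, against 73.2% of all genes, so the share called at all was near that of all genes. At least 2-fold higher were 15 members (18.1% of all genes) and at least 2-fold lower were 5 (9.02% of all genes). The median log2 fold change was 0.62 over the members and 0.04 over all genes. Of the 22 basement membrane genes tested 14 rose and none fell (median 0.65), and of the 11 fibrillar collagens 7 rose and 2 fell (median 0.59). Every PFNA library lay above every control for 7 of the members called higher, and below every control for all 5 called lower. How many of all genes separated in this way was not counted, so these numbers cannot be called particular to the members.

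**Figure D2:**
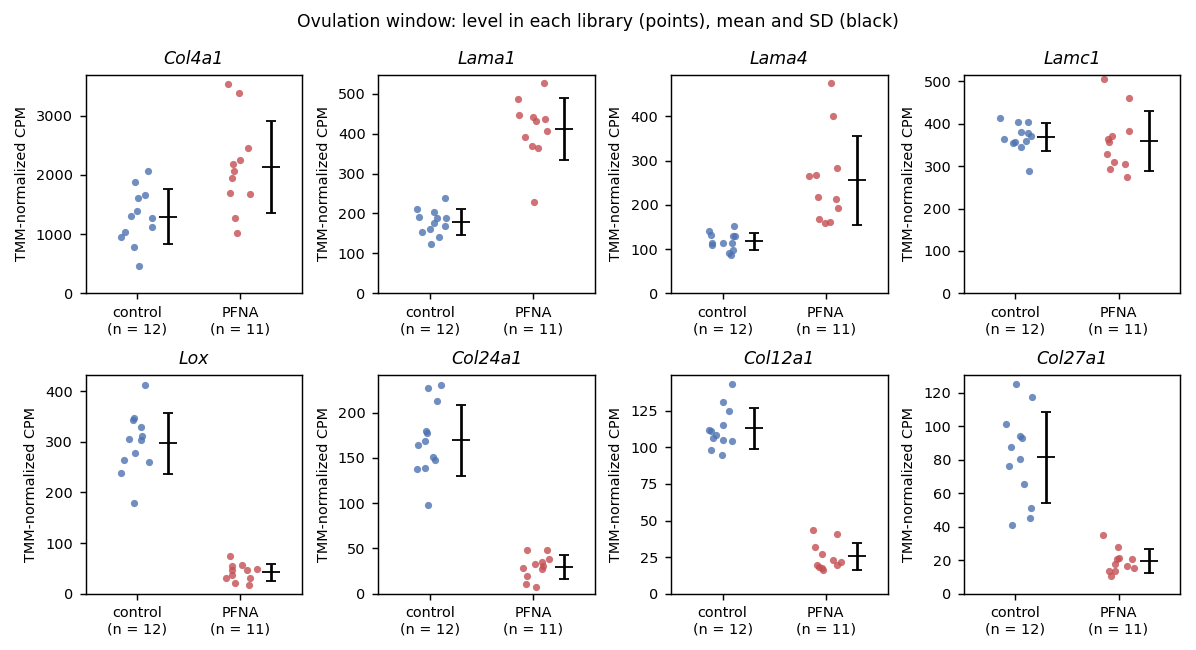
CPM (vertical axis, from 0) of 8 members in every ovulation library, controls (n = 12) and PFNA (n = 11), as points, with the group mean and SD in black. Lox, Col24a1, Col27a1 and Col12a1 with PFNA lie below every control, and Lama4 with PFNA lies above every control.

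Of the 6 collagen IV genes 5 rose in ovulation. Col4a1 measured 1292 CPM (464 to 2063) in controls and 2071 CPM (1018 to 3538) with PFNA, 1.65-fold higher (log2 fold change 0.72, SE 0.21, adjusted p = 0.0042), and 6 of 11 PFNA libraries exceeded every control. Col4a2 measured 752 CPM (273 to 1146) and 1146 CPM (566 to 2023), 1.601-fold higher (log2 fold change 0.68, SE 0.22, adjusted p = 0.0075), with 6 of 11 above every control. Of the endothelial markers 5 of 7 were called higher, where 38% of all genes were. Of the 10 stromal markers 5 were called higher and 1 lower (38% and 35.2% of all genes). They ranged from -2.21 for Pdgfra (adjusted p = 2.4e-08) to 3.66 for Tagln in log2 fold change, so this list did not move as one. With the stromal marker level as a covariate, chosen after seeing the data, the log2 fold changes of Col4a1 and Col4a2 were 0.14 (adjusted p = 0.29) and 0.092 (adjusted p = 0.54). In the X-linked pair, Col4a5 was 79.95 CPM (64.7 to 92.8) and 135 CPM (74.0 to 200.2) (log2 fold change 0.86, SE 0.12, adjusted p = 9.8e-07), with 10 of 11 PFNA libraries above every control. Col4a6 was 30.0 CPM (23.2 to 41.8) and 49.6 CPM (20.2 to 60.6) (log2 fold change 0.60, SE 0.14, adjusted p = 0.00068), with 8 above and 1 below every control. At low counts Col4a3, a chain of mature kidney and lung membranes, rose from 1.35 CPM (0.682 to 2.25) to 3.74 CPM (2.34 to 5.14) (log2 fold change 1.43, SE 0.21, adjusted p = 9.5e-07) without overlap, whereas Col4a4 was not called (log2 fold change 0.65, SE 0.31, adjusted p = 0.057). Col4a4 was called higher with DESeq2, another count test (adjusted p = 0.037), and without PFNA library 5 (adjusted p = 0.039). With another normalization its adjusted p was 0.049. Both X-linked genes were still called with the stromal covariate, under which 22 members were called higher and 5 lower.

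Of the 5 laminin alpha chains 4 rose and none fell. Lama1, an alpha chain of embryonic and follicular basement membranes, was 182 CPM (124 to 239) in controls and 432 CPM (228 to 528) with PFNA, 2.30-fold higher (log2 fold change 1.20, SE 0.11, adjusted p = 4.4e-10), and 10 of 11 PFNA libraries were higher than all controls. Lama4 was 114 CPM (87.0 to 153) and 219 CPM (159 to 475), 2.17-fold higher (log2 fold change 1.12, SE 0.16, adjusted p = 1.2e-06), with no overlap. Lama2, the alpha chain known for its role in muscle, was 70.8 CPM (13.8 to 113) and 108 CPM (65.9 to 152) (log2 fold change 0.62, SE 0.21, adjusted p = 0.011) and lost its call with the stromal covariate (adjusted p = 0.35). Lama5, the alpha chain of most adult epithelia, was not called at 19.6 CPM (12.2 to 38.2) and 19.5 CPM (8.34 to 43.4) (log2 fold change -0.092, SE 0.20, adjusted p = 0.7).

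Among beta and gamma chains Lamb1 was 401 CPM (269 to 498) and 608 CPM (288 to 904), 1.56-fold higher (log2 fold change 0.64, SE 0.14, adjusted p = 0.00026), with 9 of 11 PFNA libraries above every control. Lamb2 was 309.8 CPM (239 to 411) and 397 CPM (311 to 535) (log2 fold change 0.40, SE 0.099, adjusted p = 0.00079), with 4 of 11 above every control. Lamc1, which pairs with both, was not called, at 368 CPM (288 to 414) and 357 CPM (274 to 505) (log2 fold change -0.036, SE 0.087, adjusted p = 0.72). Lamc3, a gamma chain of a few laminins, was 33.1 CPM (8.89 to 40.7) and 56.8 CPM (36.5 to 83.9), 2.001-fold higher (log2 fold change 1.0005, SE 0.20, adjusted p = 8.5e-05), with 9 of 11 above every control. At a low level, Lama3 had 52 reads over the 12 controls and 778 over the 11 PFNA libraries, 0.154 CPM (0 to 1.05) against 4.26 CPM (2.66 to 6.68) (log2 fold change 3.78, SE 0.43, adjusted p = 2.1e-08), without overlap, and its beta partner Lamb3 was not tested, with 2 and 31 reads.

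Of the linkers, Nid2, the gene for nidogen 2, was 44.4 CPM (13.6 to 54.1) and 79.9 CPM (43.2 to 143), 2.04-fold higher (log2 fold change 1.03, SE 0.22, adjusted p = 0.00016), with 8 of 11 PFNA libraries above every control. Nid1 was not called, at 173 CPM (63.6 to 308) and 209 CPM (144 to 415) (log2 fold change 0.36, SE 0.21, adjusted p = 0.12). Hspg2 was 952 CPM (819 to 1271) and 931 CPM (712 to 1646) (log2 fold change 0.067, SE 0.12, adjusted p = 0.64), a difference within its error. Agrn was 116 CPM (87.3 to 154) and 117 CPM (83.3 to 191) (log2 fold change 0.17, SE 0.14, adjusted p = 0.26). Of the basement membrane collagens with an endostatin domain, Col15a1 was 191 CPM (57.6 to 360.2) and 245 CPM (166 to 537) (log2 fold change 0.42, SE 0.25, adjusted p = 0.13), and Col18a1 was 133 CPM (97.4 to 173) and 134 CPM (49.2 to 267) (log2 fold change 0.20, SE 0.22, adjusted p = 0.41), with 4 PFNA libraries above and 4 below every control. Of these 6 genes, Nid2 alone passed the test.

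Fibrillar collagens moved in both directions. Col11a1 was 70.7 CPM (49.5 to 113) and 176 CPM (106 to 341), 2.57-fold higher (log2 fold change 1.36, SE 0.18, adjusted p = 2.7e-07), and 10 of 11 PFNA libraries exceeded every control. Its partner chain Col11a2 rose 2.46-fold from 6.24 CPM (3.68 to 8.56) to 15.1 CPM (11.3 to 21.0) (log2 fold change 1.30, SE 0.15, adjusted p = 2e-08), without overlap. Col2a1, the main collagen of cartilage, had 13 reads over the 12 controls, 7 of them at 0, and 576 over the 11 PFNA libraries, or 2.31 to 4.86 CPM with PFNA. It was called higher (adjusted p = 4.1e-10), and its fitted log2 fold change of 5.24 depends on the prior count at this depth.

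Both collagen I chains and 2 of the 3 collagen V chains rose, with overlap. Col1a1 was 149 CPM (23.0 to 267) and 217 CPM (91.7 to 519) (log2 fold change 0.80, SE 0.30, adjusted p = 0.02), and Col1a2 was 376 CPM (73.1 to 551) and 444 CPM (355 to 896) (log2 fold change 0.59, SE 0.23, adjusted p = 0.025), with 4 of 11 PFNA libraries above every control for each. Col5a1 was 177 CPM (86.8 to 256) and 222 CPM (107 to 386) (log2 fold change 0.38, SE 0.17, adjusted p = 0.042). These 3 calls rested on PFNA library 5, without which the adjusted p was 0.054, 0.062 and 0.1. That of Col5a1 was also lost without control library 9 (adjusted p = 0.066), a setting added after seeing the data. Col5a3 was 13.97 CPM (0.448 to 26.6) and 31.9 CPM (8.12 to 49.8) (log2 fold change 1.13, SE 0.35, adjusted p = 0.0058), a call that was lost with the stromal covariate (log2 fold change 0.31, adjusted p = 0.33). The collagen V chain Col5a2 was not called, at 116 CPM (91.2 to 160.4) and 111 CPM (85.4 to 162) (log2 fold change 0.024, SE 0.11, adjusted p = 0.85), nor was Col3a1, at 540.2 CPM (46.4 to 965) and 620.2 CPM (381 to 1312) (log2 fold change 0.38, SE 0.30, adjusted p = 0.26). With the stromal covariate the median over the 11 fibrillar collagens was -0.0028, against 0.59 without it, with Col1a1 at -0.0028, Col1a2 at 0.0011 and Col5a1 at -0.034, none of them called (adjusted p = 0.99, 1 and 0.82).

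Col24a1 and Col27a1, fibrillar collagens of a separate structural branch, fell instead. Col24a1 was 167 CPM (98.5 to 231) in controls and 30.1 CPM (7.27 to 48.7) with PFNA, 5.72-fold lower (log2 fold change -2.52, SE 0.24, adjusted p = 1.5e-09). Col27a1 was 83.8 CPM (40.7 to 125) and 17.8 CPM (10.6 to 35.1), 4.20-fold lower (log2 fold change -2.07, SE 0.21, adjusted p = 3.2e-09). In both genes every PFNA library lay below every control. The genes lie at chr3:145292472-145552011, plus strand, and chr4:63214004-63334991, plus strand (GRCm38). As the fibrillar genes that fell, they are shown with the 250 bases before their RefSeq starts, chr3:145292222-145292471 and chr4:63215162-63215411 (both plus strand). The Col27a1 stretch lies inside the longer gene model of the table, outside its annotated exons, and held 1 GGGCGG, and the Col24a1 stretch held none of the 4 motifs.
Col24a1: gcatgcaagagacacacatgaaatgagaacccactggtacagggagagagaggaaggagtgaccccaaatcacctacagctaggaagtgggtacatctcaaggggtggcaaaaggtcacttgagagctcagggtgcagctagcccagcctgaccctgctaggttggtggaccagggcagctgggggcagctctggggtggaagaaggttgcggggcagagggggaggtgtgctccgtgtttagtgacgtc
Col27a1: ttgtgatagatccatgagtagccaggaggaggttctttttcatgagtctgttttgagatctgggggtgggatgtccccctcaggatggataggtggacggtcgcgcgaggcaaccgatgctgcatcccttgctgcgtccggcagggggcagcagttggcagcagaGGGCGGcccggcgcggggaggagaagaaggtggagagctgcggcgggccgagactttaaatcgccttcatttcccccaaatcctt

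**Figure D3:**
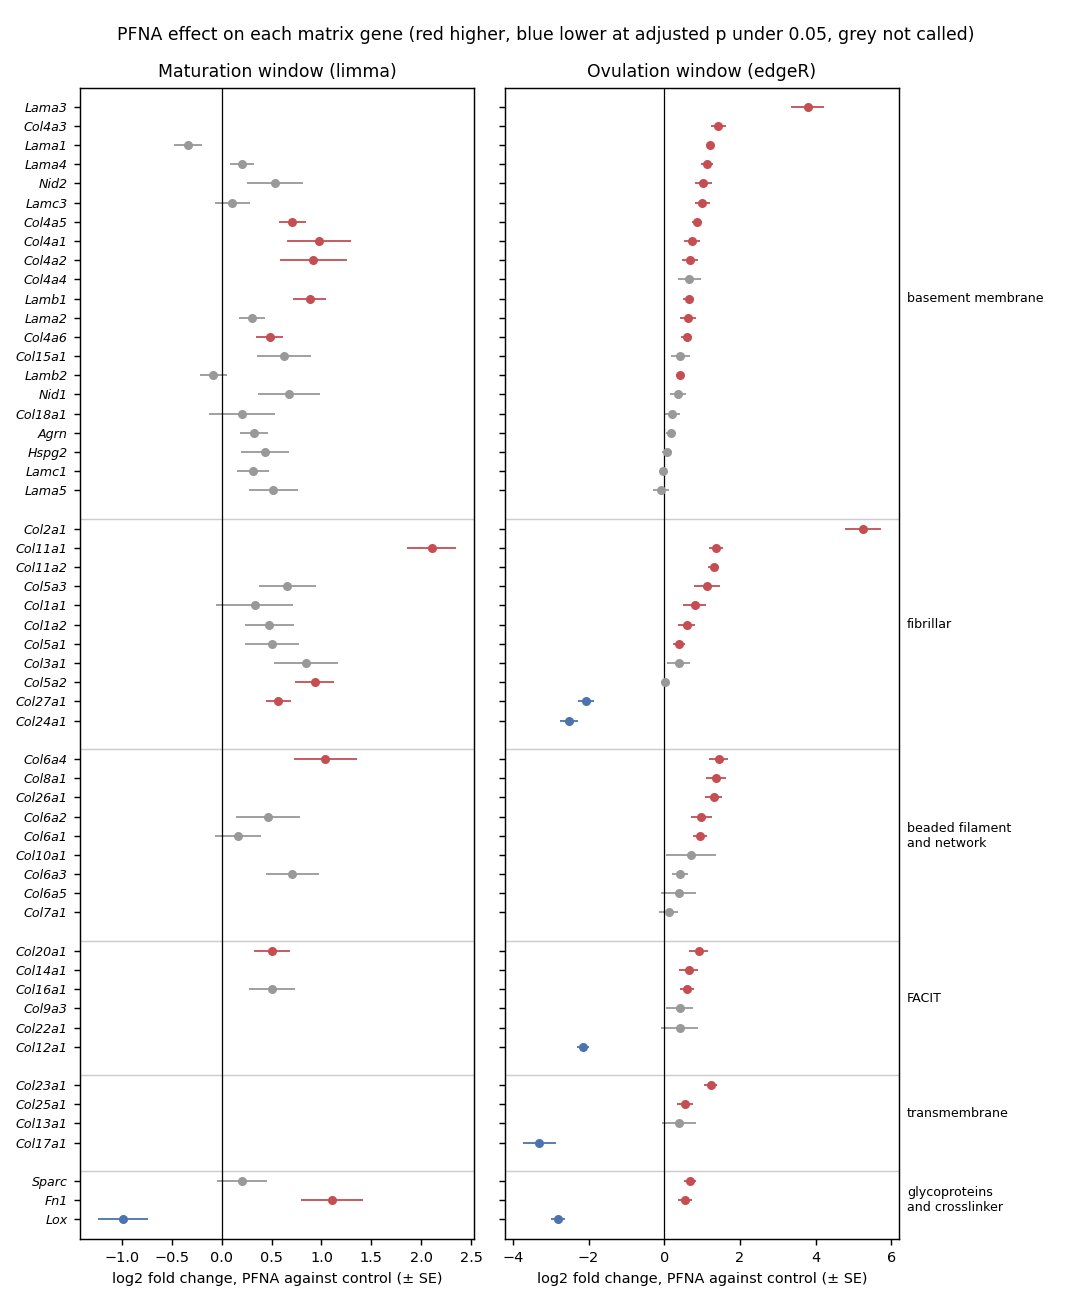
Log2 fold change (PFNA against control, points, with SE as bars) of the tested members, except 1 that is not reported here, grouped by structural class, in maturation and ovulation. Red points were called higher, blue lower and grey not called, and in ovulation no basement membrane gene is blue, while Col24a1 and Col27a1 stand apart from the other fibrillar collagens at -2.52 and -2.07.

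Of 5 collagen VI chains tested in ovulation 3 rose. Col6a1 was 140.0 CPM (79.6 to 264) and 274 CPM (215 to 538), 1.92-fold higher (log2 fold change 0.94, SE 0.20, adjusted p = 0.00015), and Col6a2 was 89.2 CPM (19.7 to 173) and 196 CPM (109 to 382), 1.96-fold higher (log2 fold change 0.97, SE 0.27, adjusted p = 0.0026), each with 6 of 11 PFNA libraries above every control. With the stromal covariate Col6a2 lost its call (log2 fold change 0.25, adjusted p = 0.075). Col6a4 was 13.1 CPM (3.14 to 16.6) and 36.6 CPM (11.2 to 54.5), 2.69-fold higher (log2 fold change 1.43, SE 0.25, adjusted p = 1.7e-05), with 9 of 11 above every control. Col6a3, the large chain that completes the common collagen VI trimer, was not called at 189 CPM (87.8 to 323) and 249.9 CPM (161 to 431) (log2 fold change 0.41, SE 0.22, adjusted p = 0.098). Col8a1, a network collagen of vessel walls, rose from 1.86 CPM (0.598 to 3.75) to 5.34 CPM (2.31 to 7.97) (log2 fold change 1.37, SE 0.27, adjusted p = 6.9e-05), and Col26a1, a collagen first described in testis and ovary, from 4.27 CPM (1.05 to 7.26) to 9.60 CPM (6.05 to 16.3) (log2 fold change 1.30, SE 0.22, adjusted p = 1.2e-05).

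Col12a1, a fibril-associated collagen of tissues under tension, fell 4.44-fold, from 110 CPM (94.8 to 143) to 21.9 CPM (16.2 to 43.4) (log2 fold change -2.15, SE 0.15, adjusted p = 3.7e-12), without overlap. Col16a1 rose 1.51-fold, from 21.1 CPM (14.8 to 32.9) to 34.5 CPM (18.4 to 59.1) (log2 fold change 0.60, SE 0.19, adjusted p = 0.0058), and lost its call with the stromal covariate (adjusted p = 0.29). Col20a1 and Col14a1 were also called higher (log2 fold change 0.91, SE 0.24, adjusted p = 0.0018, and log2 fold change 0.64, SE 0.25, adjusted p = 0.025), the latter neither without PFNA library 5 (adjusted p = 0.11) nor with the stromal covariate (log2 fold change 0.083, adjusted p = 0.76). Of the transmembrane collagens Col23a1 rose 2.33-fold without overlap, from 4.11 CPM (1.64 to 6.54) to 9.17 CPM (6.65 to 12.9) (log2 fold change 1.22, SE 0.18, adjusted p = 8.6e-07), Col25a1 rose slightly (log2 fold change 0.54, SE 0.21, adjusted p = 0.024), and Col17a1, a hemidesmosome collagen, fell from 643 reads over the controls to 69 with PFNA (log2 fold change -3.31, SE 0.43, adjusted p = 2e-07). The other tested members, Col10a1, Col13a1, Col22a1, Col6a5, Col7a1 and Col9a3, were not called, and 7 members with a mean of at most 1.12 CPM in either group were not tested.

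Lox had the largest fall among members above 20 CPM. It was 304 CPM (178 to 413) in the hCG controls and 46.1 CPM (18.1 to 74.2) with hCG and PFNA, 7.02-fold lower (log2 fold change -2.81, SE 0.20, adjusted p = 6e-12), with all 11 PFNA libraries lower than any control. The adhesive glycoprotein genes rose. Fn1 was 605 CPM (264 to 933) and 756 CPM (561 to 1642), 1.46-fold higher (log2 fold change 0.54, SE 0.18, adjusted p = 0.0081), with 3 of 11 PFNA libraries above every control, and Sparc was 521 CPM (312 to 751) and 766 CPM (559 to 1123), 1.59-fold higher (log2 fold change 0.67, SE 0.16, adjusted p = 0.00045), with 6 of 11. With the stromal covariate the call of Fn1 was lost (adjusted p = 0.39). Of the marker lists, 5 of 10 stromal genes were called higher and 1 lower, and 5 of 7 endothelial genes were called higher. Of all genes 38% were called higher and 35.2% lower. The part of endothelial markers in these results was not tested. Without control library 9, an alternative added after seeing the data, 32 members rose and 5 fell, and without PFNA library 5, 30 rose and 5 fell. Over all genes 5008 rose and 4696 fell in the former and 5170 and 4736 in the latter, against 5101 and 4736 with all libraries.

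Fibrillar and basement membrane genes were set side by side as sums per library. In maturation the 23 basement membrane genes summed to 356 to 1057 (median 690.0) TPM in controls and 571 to 1262 (median 796) TPM with PFNA. The 11 fibrillar collagens summed to 163 to 858 (median 339) and 314 to 1473 (median 549.8) TPM. Each sum had 1 of 10 PFNA libraries above every control. The ratio of fibrillar to basement membrane TPM was 0.291 to 0.854 (median 0.589) in controls and 0.445 to 1.17 (median 0.661) with PFNA, and without the most abundant gene of each class (Col3a1 and Lamb2) it was 0.501 to 0.890 (median 0.767) and 0.505 to 1.03 (median 0.641). The direction of the medians thus depended on that pair of genes, and the ranges overlapped.

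In ovulation, where CPM weights long transcripts, the basement membrane sum was 3562 to 6844 (median 5334) CPM in controls and 5579 to 11945 (median 7066) CPM with PFNA, and 7 of 11 PFNA libraries exceeded every control. The fibrillar sum was 694 to 2551 (median 1735) and 1365 to 3644 (median 1821) CPM, and 2 of 11 exceeded every control. The ratio was 0.195 to 0.373 (median 0.311) in controls and 0.242 to 0.344 (median 0.280) with PFNA, and 0.209 to 0.332 (median 0.281) and 0.213 to 0.288 (median 0.255) without Col3a1 and Col4a1. By counts and medians both classes shifted upwards in both windows, and the falls among fibrillar genes came from Col24a1 and Col27a1 in ovulation. All 62 members together made up 0.150% and 0.185% of maturation TPM and 0.917% and 1.13% of ovulation counts, in control and PFNA libraries (medians).

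Genes whose chains assemble together were compared within each group as log2 levels, 4 pairs in 4 groups or 16 correlations in all. Col4a1 and Col4a2 tracked each other almost exactly. Pearson's r was 0.998 (Spearman's rho 1) in maturation controls, 0.996 (0.988) with PFNA, 0.998 (1) in ovulation controls and 0.992 (0.973) with PFNA. Each permutation p was 1e-05, the smallest that 100000 shuffles can give (adjusted p = 2e-05 for r and 4e-05 for rho), and without the 2 libraries farthest from the median r was 0.997, 0.992, 0.994 and 0.984. Their RefSeq transcripts begin on opposite strands and share their first 22 bases, and whether counting used the strand is not given in the sources used here.

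Lamb1 and Lamc1, a beta and a gamma chain of the same laminins, were the next pair. Their r was 0.818 in maturation controls (permutation p = 0.0038, adjusted p = 0.0043; rho = 0.573, permutation p = 0.072), but 0.376 without 2 libraries, so that relation rests on them. With PFNA it was 0.836 (permutation p = 0.0033, adjusted p = 0.0041; rho = 0.721, permutation p = 0.024), and 0.651 without 2 libraries. In ovulation controls r was -0.390 (permutation p = 0.22; rho = -0.119, permutation p = 0.72), and -0.697 without 2 libraries. With PFNA in ovulation it was 0.786 (permutation p = 0.0049, adjusted p = 0.0052; rho = 0.809, permutation p = 0.0038), and 0.789 without 2 libraries. The difference in r between these groups was not tested. The median ratio of Lamb1 to Lamc1 was 1.04 in ovulation controls and 1.67 with PFNA on the CPM scale, and 1.87 and 2.52 on the TPM scale in maturation. Col1a1 with Col1a2 and Col6a1 with Col6a2 had r between 0.840 and 0.980 in the 4 groups. Without the 2 farthest libraries r was at least 0.793 for both pairs, except for Col6a1 with Col6a2 in ovulation PFNA libraries, where it went from 0.869 to 0.509.

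**Figure D4:**
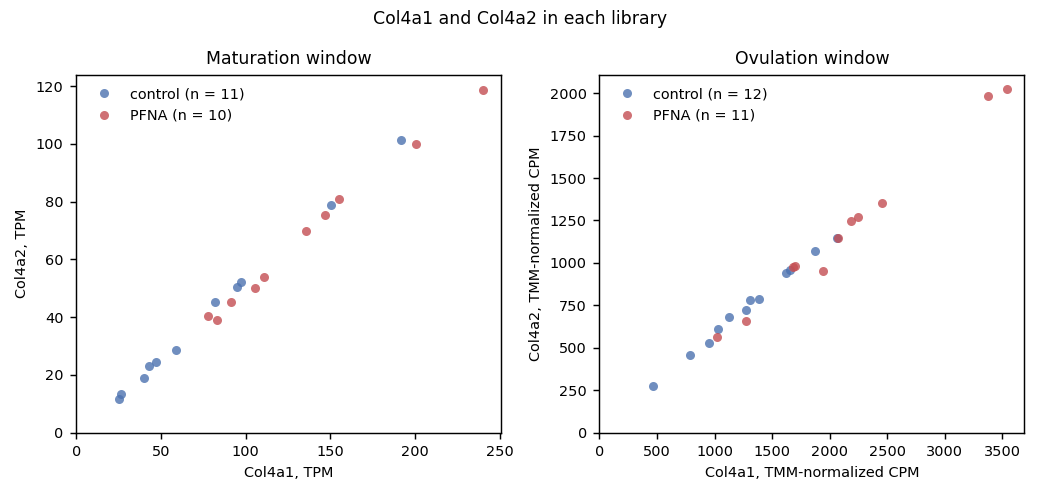
Col4a2 (vertical) against Col4a1 (horizontal) in every library on linear axes from 0, maturation in TPM (left) and ovulation in CPM (right), with control and PFNA libraries as points. In both windows the libraries of both groups lie along a common line, with r from 0.992 to 0.998 within a group.

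The genes that followed Col4a1 most closely were ranked by Pearson's r over control libraries. In maturation (n = 11) they were Col4a2 (0.998), Emp1 (0.991), Litaf (0.987), Tgfbr2 (0.985) and Sparcl1 (0.984), and in ovulation (n = 12) Col4a2 (0.998), Cald1 (0.978), Sparcl1 (0.977), Col6a2 (0.977) and Postn (0.977). The points share library composition, and no test was made. Postn is one of the stromal markers.

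The PFNA effect was then compared between windows. Of 35 members tested in both, 9 rose in both (Col4a1, Col4a2, Col4a5, Col4a6, Lamb1, Fn1, Col11a1, Col6a4 and Col20a1), Lox fell in both, and Col27a1 rose in maturation and fell in ovulation. Calls in maturation were also calls in ovulation in 91.7% of cases, and 44% of the 25 ovulation calls among these members were calls in maturation. Over all genes 73.2% of those tested were called in ovulation and 29.4% in maturation. The overlap of calls over all genes was not counted, so the shared calls cannot be said to exceed it. The windows share no libraries. Each effect was estimated by limma within its own table on log2(value + 1), and the difference was called for 5 members as higher in ovulation, where 32% of all 11214 genes were, and for 4 as lower, where 35.6% of all genes were. These are 9 of 35 members, against 67.7% of all genes in either direction.

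Laminin chains made up 4 of the 5 higher effects. The ovulation effect minus the maturation effect was 1.53, SE 0.18, adjusted p = 6.5e-10, for Lama1, whose effects were -0.33 and 1.19. Lamc3 (0.93, SE 0.27, adjusted p = 0.0028) and Lama4 (0.84, SE 0.20, adjusted p = 0.00026) also differed. Lamb2 (0.49, SE 0.17, adjusted p = 0.0096) and the collagen VI chain Col6a1 (0.79, SE 0.30, adjusted p = 0.02) completed the list. Lower effects in ovulation were those of Col27a1 (-2.58, SE 0.23, adjusted p = 1.5e-12), Lox (-1.87, SE 0.31, adjusted p = 1.7e-06), Col5a2 (-0.92, SE 0.22, adjusted p = 0.00051) and Col11a1 (-0.82, SE 0.30, adjusted p = 0.016). Lox thus fell in both windows, with effects of -0.99 and -2.86. The Col11a1 difference was not called with a pseudocount of 5 (-0.23, adjusted p = 0.43). No difference was called for Col4a1, Col4a2, Col4a5 or Col4a6, at -0.24 ± 0.39, -0.24 ± 0.40, 0.10 ± 0.18 and 0.051 ± 0.20 (SE). That does not show equal effects.

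**Figure D5:**
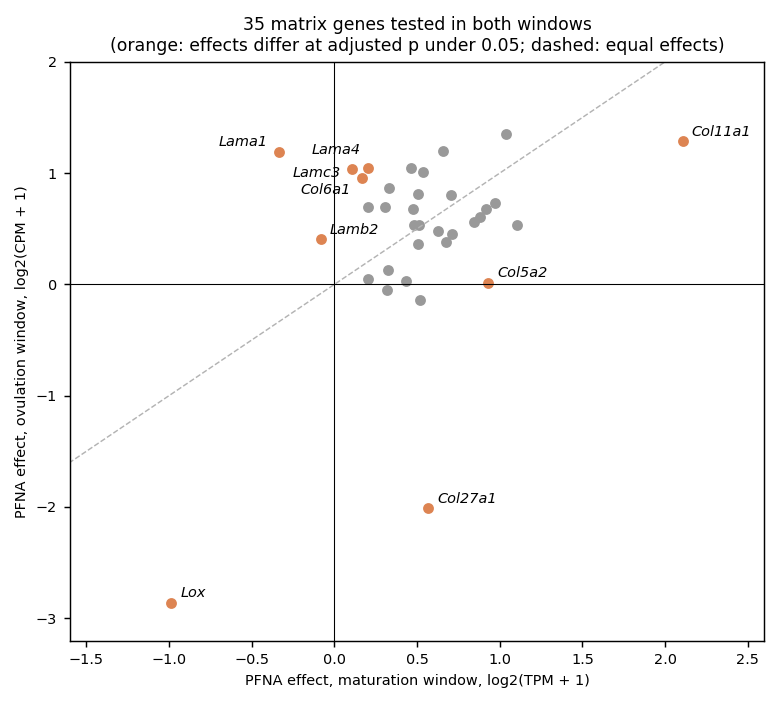
Log2 effect of PFNA in ovulation (vertical) against maturation (horizontal) for the 35 members tested in both windows, with the 9 called differences named and in orange and a dashed line of equal effects. Most points lie above and right of 0, Lox lies below and left of it, and Lama1 and Col27a1 lie in the opposite corners.

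Genes that fold and export these proteins (21 listed), process and crosslink them (13), bind them at the cell surface (19) or signal through TGF-beta (13 symbols) were counted as lists. In the TGF-beta list the symbols Ccn2 and Ctgf name the same gene. For folding and export (prolyl and lysyl hydroxylases, chaperones and export factors), 0 of 19 tested rose and 5 fell in maturation, where 13.3% and 16.1% of all genes did, and 14 rose and 3 fell of 21 in ovulation, where 38% and 35.2% of all genes did. In maturation the smallest p was that of Ppib, a prolyl isomerase of the endoplasmic reticulum, at 478 TPM (419.9 to 534) and 286 TPM (262 to 395) (log2 fold change -0.63, SE 0.067, adjusted p = 2.5e-06). In ovulation it was that of Creb3l2, a transcription factor for secretory pathway genes, at 246 CPM (157 to 331) and 634 CPM (509 to 754) (log2 fold change 1.33, SE 0.091, adjusted p = 1.7e-12), and among the falls that of Plod2, the lysyl hydroxylase of collagen telopeptides (log2 fold change -0.80, SE 0.20, adjusted p = 0.00081).

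Processing and crosslinking genes had 3 higher and none lower of 8 tested in maturation (13.3% and 16.1% of all genes), with the smallest p for Adamts2, a procollagen N-proteinase, at 6.38 TPM (3.15 to 8.91) and 11.4 TPM (7.06 to 22.9) (log2 fold change 0.95, SE 0.20, adjusted p = 0.001). In ovulation 5 rose and 3 fell of 12, against 38% and 35.2% of all genes. Loxl3, a relative of Lox, had the smallest p of those that rose (log2 fold change 0.70, SE 0.12, adjusted p = 1.2e-05), and Adamts3, another procollagen N-proteinase, of those that fell, from 23.9 CPM (12.8 to 41.1) to 2.70 CPM (1.24 to 5.401) (log2 fold change -3.02, SE 0.22, adjusted p = 7.7e-12).

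Matrix receptors had 5 higher and 1 lower of 15 tested in maturation (13.3% and 16.1% of all genes) and 6 higher and 8 lower of 19 in ovulation (38% and 35.2%), the latter near the shares of all genes. Itga6, a laminin-binding integrin subunit, had the smallest p of the maturation rises, at 7.96 TPM (3.67 to 18.2) and 22.6 TPM (7.68 to 31.7) (log2 fold change 1.25, SE 0.27, adjusted p = 0.0014), and Itga2, a collagen-binding subunit, was the receptor that fell (log2 fold change -0.88, SE 0.21, adjusted p = 0.0037). In ovulation the smallest p of the rises was that of Itgb4, the partner of Itga6 in hemidesmosomes, at a very low level, from 0.103 CPM (0 to 0.403) to 1.69 CPM (0.896 to 2.43) (log2 fold change 3.62, SE 0.41, adjusted p = 2e-08). That of the falls was Itga5, a fibronectin receptor subunit, from 698 CPM (530.3 to 1069) to 155 CPM (129 to 267) (log2 fold change -2.12, SE 0.12, adjusted p = 1e-13).

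TGF-beta signalling, which raises collagen transcription in many mesenchymal cells, had 4 of 11 tested genes higher and 1 lower in maturation, and 6 higher and 6 lower of 12 in ovulation. Of all genes 13.3% were higher and 16.1% lower in maturation, and 38% and 35.2% in ovulation. Smad7, an inhibitor that the pathway itself induces, had the smallest p of the maturation rises, from 8.72 TPM (6.29 to 18.0) to 18.4 TPM (15.1 to 32.5) (log2 fold change 1.08, SE 0.15, adjusted p = 3.1e-05), and of the ovulation falls, from 96.3 CPM (70.3 to 144) to 24.7 CPM (13.0 to 40.5) (log2 fold change -2.02, SE 0.16, adjusted p = 5e-11). The ligand gene Tgfb3 fell in maturation (log2 fold change -0.78, SE 0.19, adjusted p = 0.0044), and the receptor gene Tgfbr1 had the smallest p of the ovulation rises (log2 fold change 0.69, SE 0.11, adjusted p = 5.6e-06). The Smad7 ranges overlapped in maturation and did not in ovulation.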

How the data were processed

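A kit for small samples was used for RNA extraction, and cDNA from poly-A RNA was primed with random hexamers, per the labels. The submitters' processing notes name Partek, Bowtie2 and HISAT2, and versions, the use of strand and the annotation are not given in the sources used here. The maturation values the authors deposited are TPM, as found from the values (each library sums to 1000000), so the depth behind them is unknown. The ovulation values the authors deposited are estimated counts, rounded here to whole numbers before testing.

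Maturation was tested with limma 3.58.1 (trend, robust) on log2(TPM + 1), for genes that averaged 1 TPM or more. This scale understates changes of low genes. Ovulation was tested with edgeR 4.0.16 (filterByExpr, TMM, quasi-likelihood, robust; R 4.3.3). Differences between windows used limma within each table and Satterthwaite degrees of freedom. P-values are Benjamini-Hochberg adjusted over all genes tested, and these 3 tests were also run on simulated data with known changes. Only a small share of genes was changed there, unlike in these data. The simulation therefore cannot show how the tests behave when most genes move. Printed CPM are edgeR's values with TMM scaling.

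Values are given in full for members with a group mean of at least 20 TPM or CPM, or called at least 2-fold with a mean of at least 5, and for pathway lists the smallest p in each direction and window. Members and lists were chosen with earlier results of these data known. Alternatives were another pseudocount, filter, normalization or tool (DESeq2 1.42.0), the replicate block, marker covariates and leaving out libraries. The values of 1 member are not reported here, though it is part of the counts and sums. Columns were matched to samples by title. A column that differed by a letter from the title of maturation control replicate 6 was taken as it, and control replicate 4 was not analysed here. Gene positions are those of the maturation table, which match GENCODE M21 (GRCm38) for all 62 members. Among all genes found there by symbol, the start was the same for 99.4% in the maturation table and 37.2% in the ovulation table. The gene positions of the windows thus often differed, and the part of this in differences between windows was not tested. Upstream sequences come from RefSeq (GRCm38.p6), which matched 44 of the 62 members.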

Additional observations from a re-analysis of the deposited data

Results flagged for a closer look

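In the maturation PFNA group of 10 libraries, library 10 stood far above the others for 9 of the 35 tested members, by a gap larger than Dixon's 95% critical value allows. These were Agrn (60.7 against 47.0 TPM in the next library), Col16a1 (22.5 against 12.7 TPM in the next library), Col1a1 (524 against 238 TPM in the next library), Col3a1 (501 against 289 TPM in the next library), Col6a1 (374 against 179 TPM in the next library), Col6a2 (181 against 101 TPM in the next library), Lama2 (2.59 against 1.70 TPM in the next library), Lama5 (14.03 against 5.08 TPM in the next library) and Nid1 (61.2 against 36.7 TPM in the next library). Chance marks about 1 in 20 groups, and these 9 values share a library. Library 10 also had the highest mean log2 level of stromal markers in this window (5.18), and the part of this was not tested. None of the 9 genes was called in maturation.

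The PFNA effect differed between windows, by the test of the difference itself (limma, Benjamini-Hochberg adjusted), in 9 members. The effect in ovulation minus that in maturation, in log2 units, was 1.53 for Lama1, 0.93 for Lamc3, 0.84 for Lama4, 0.79 for Col6a1 and 0.49 for Lamb2, and -2.58 for Col27a1, -1.87 for Lox, -0.92 for Col5a2 and -0.82 for Col11a1. Of the members with the lower effect in ovulation, Col27a1 rose in maturation and fell in ovulation, Lox fell in both, Col11a1 rose in both, and Col5a2 rose in maturation and was not called in ovulation.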

How the results depend on the processing

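Counts of called members in ovulation stayed within 1.5 times of 33 higher and 5 lower under all alternatives run (22 to 35 higher, 4 or 5 lower), with DESeq2 at 34 and 5. In maturation, against 11 higher and 1 lower, the lower count was 2 with no filter on low values, with median-ratio size factors and with the stromal marker covariate. With the oocyte share as a covariate 4 were higher and 0 lower, without PFNA libraries 1 and 2, 21 were higher and 2 lower, and without control libraries 8 and 12, 22 were higher (the last setting added after seeing the data). Over all genes 2600 were higher and 2601 lower without PFNA libraries 1 and 2. Without control libraries 8 and 12 these were 1865 and 2030. The causes were not tested. With a pseudocount of 5, 8 differences between windows were higher, against 5. Of the recomputed values of single genes in maturation, 389 kept direction and call, 35 gained a call, 18 lost it and 6 changed sign. In ovulation these were 501, 3, 18 and 16, and for differences between windows 196, 6, 1 and 7. With the stromal marker level as a covariate (added after seeing the data) the sign turned in maturation to -0.36 for Col18a1, -0.36 for Col1a1, -0.20 for Col6a1, -0.10 for Col6a2, -0.029 for Lamc3 and -0.19 for Sparc, and in ovulation to -0.21 for Col15a1, -0.20 for Col18a1, -0.0028 for Col1a1, -0.38 for Col3a1, -0.034 for Col5a1, -0.12 for Col5a2, -0.12 for Col6a3, -0.25 for Col6a5, -0.13 for Hspg2 and -0.19 for Nid1. The fibrillar median in ovulation was then -0.0028. In ovulation the sign also turned to -0.0080 for Col5a2 with no filter, to -0.022 for Col5a2 and -0.017 for Hspg2 without PFNA library 5 (over the settings that leave out 1 library, Col5a2 ranged from -0.022 to 0.0036 and Hspg2 from -0.017 to 0.058), to -0.080 for Col6a5 and 0.024 for Lamc1 with the oocyte share, and to 0.042 for Lamc1 with a mean of at least 5 CPM. For differences between windows it turned to -0.032 for Col16a1, -0.22 for Col4a6 and -0.19 for Col6a4 with a pseudocount of 0.1, to -0.11 for Col16a1, -0.054 for Col4a5 and -0.089 for Col4a6 without PFNA libraries 1 and 2, and to -0.030 for Col16a1 without control library 9. The values showed no sign that replicate numbers pair the libraries. Over shared numbers, the correlation of deviations was -0.138 to 0.168 in 9 maturation pairs (1 over 0.1) and -0.193 to 0.0726 in 11 ovulation pairs (0 over 0.1), and 0 libraries correlated best with their own number. Low correlations cannot exclude a pairing, because other differences between libraries could hide it. With the replicate block 10 members were higher and 2 lower in maturation, 30 and 5 in ovulation, and 5 and 4 in the difference, and over all genes in maturation 1032 were higher and 1863 lower, against 1824 and 2206. Under the block Col20a1 and Col4a6 (maturation) and Col14a1, Col25a1 and Col5a1 (ovulation) lost their calls, and Col3a1 and Lama1 (lower, -0.44) gained one in maturation. Over all genes in maturation the oocyte share left 340 higher and 497 lower, and the stromal covariate 1092 and 1936. The TPM depth is unknown, and the 27 members with means of at most 1.22 TPM were not tested in maturation.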

Other observations

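Ranked by mean TPM in maturation controls, which can be compared between genes, the 10 highest of the 62 members were Lamb2 (304 TPM), Sparc (169 TPM), Col6a1 (144 TPM), Col1a1 (140.4 TPM), Col3a1 (132 TPM), Col1a2 (122 TPM), Col4a1 (77.9 TPM), Col6a2 (60.4 TPM), Hspg2 (47.5 TPM) and Lamb1 (46.7 TPM). Basement membrane, fibrillar and collagen VI genes were mixed at the top of the order. The library ranges of Hspg2 and Lamb1, neighbours in it, overlapped, at 16.7 to 90.4 and 24.9 to 80.02 TPM. Lox ranked 21 of 62.

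Col24a1 and Col12a1, chosen here after their values were seen, were among the members that fell in ovulation and were too low to be tested in maturation. In maturation controls Col24a1 had 0.356 TPM (0.108 to 0.506) and Col12a1 0.433 TPM (0.103 to 1.21). With PFNA they had 0.147 TPM (0.103 to 0.301) and 0.863 TPM (0.310 to 4.96). In the hCG controls of the ovulation window they stood at 167 CPM (98.5 to 231) and 110 CPM (94.8 to 143), on a scale that cannot be set against TPM.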
